A study of Homo sapiens with 9 samples.

Results

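10 members of the matrix metalloproteinase (MMP) family were followed in multicellular tumor spheroids (MTSs) of PC3 cells: the collagenases MMP1 and MMP13, the gelatinases MMP2 and MMP9, the stromelysins MMP3 and MMP10, the matrilysin MMP7, the membrane-type enzymes MMP14 and MMP15, and MMP23B. They were chosen by name and found by an exact match of the gene symbol, as 10 of the 27111 genes in the deposited tables, and all 10 were among the 17108 genes tested. PC3 is a human prostate cancer cell line derived from a bone metastasis. The cells had been stably transduced with lentiviral particles and selected with puromycin, and carried either the empty vector (Empty), the long splice isoform of murine NF-YA (NF-YAl) or the short one (NF-YAs). NF-YA is the DNA-binding subunit of NF-Y, the transcription factor that binds the CCAAT box. Each library was made from spheroids pooled after a week of culture in medium with Matrigel, and each line had 3 libraries from independent experiments. Their letters are A, B and C, with D in place of C for NF-YAl. Each line is 1 transduced population, so differences between lines cannot be told apart from differences between the transductions. In bulk RNA, fewer cells of a type and less RNA per cell cannot be told apart either.

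MMPs are zinc-dependent endopeptidases that cut the proteins of the extracellular matrix and of the cell surface. Most are secreted as inactive proenzymes, in which a cysteine of the prodomain blocks the catalytic zinc until other proteases remove it, and tissue inhibitors of metalloproteinases (TIMPs) then hold the active enzymes in check. In prostate cancer they are known for their part in the passage of tumor cells through basement membrane and in bone metastasis. Transcript levels, which are what was measured here, say nothing of the state of activation of the enzymes.

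The libraries held 18076979 to 27163976 expected counts, RSEM's estimates of reads per gene, and the spread among replicates was wider than counting error alone would give (chi-square per gene from 6.08 to 86.7). The highest value belonged to NF-YAl D against NF-YAl A. NF-YAl D also stood apart in TPM, the length-corrected abundance that RSEM scales to one total per library, where the median gene lay 0.82 on the log2 scale above its level in CPM, the count scaled to library size, against -0.15 to 0.31 in the other 8 libraries. For this reason lines are compared here on CPM scaled by TMM, and TPM is used only to compare genes within a library. NFYA was at 91.8 ± 4.24, 341 ± 49.3 and 261 ± 5.71 CPM (SD, n = 3) in the 3 lines, Empty first and NF-YAs last. Reads were aligned to human transcripts and those of the murine transgenes were not separated, so their part in these levels was not tested. All 5 epithelial markers (EPCAM, KRT8, KRT18, KRT19 and CDH1) were detected in each line, and their summed level was 1171 to 1294 CPM in Empty, 744 to 759 in NF-YAl and 729 to 833 in NF-YAs. Markers of the androgen axis summed to 16.9 to 23.1, 36.5 to 61.1 and 27.2 to 32.3 CPM, with KLK3 at 0 in all 9 libraries. Among 6 fibroblast markers, DCN, LUM, THY1 and FAP were too low to be tested in any line, and the summed levels of 26.1 to 71.6, 76.8 to 262 and 99.8 to 149 CPM were mostly COL3A1. The 6 leukocyte markers summed to 78.4 to 94.9, 54.5 to 58.5 and 50.1 to 57.8 CPM, with PTPRC and CD3E too low to be tested. The 5 endothelial markers summed to 40.9 to 46.3, 325 to 718 and 191 to 288 CPM, which was mostly KDR, with CDH5 and TEK too low to be tested. The part of these marker shifts in the MMP levels was not tested.

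Because NF-Y acts through the CCAAT box, the 250 bases before the start site are shown for the 5 members with an entry in the promoter table used here (RefSeq, GRCh38.p14). MMP1, MMP2, MMP3, MMP9 and MMP13 had no entry. Capitals mark motifs on either strand: CCAAT, which reads ATTGG on the other strand, the AP-1 element TGAGTCA, which there reads TGACTCA, the TATA element TATAAA, which there reads TTTATA, and the GC box GGGCGG, which there reads CCGCCC. The marked motifs do not overlap each other in these windows, and each run is written 5′ to 3′ along the gene. The windows are chr11:102780629-102780878 (minus strand) for MMP10, chr11:102530748-102530997 (minus strand) for MMP7, chr14:22836335-22836584 (plus strand) for MMP14, chr16:58025504-58025753 (plus strand) for MMP15 and chr1:1631923-1632172 (plus strand) for MMP23B.
MMP10: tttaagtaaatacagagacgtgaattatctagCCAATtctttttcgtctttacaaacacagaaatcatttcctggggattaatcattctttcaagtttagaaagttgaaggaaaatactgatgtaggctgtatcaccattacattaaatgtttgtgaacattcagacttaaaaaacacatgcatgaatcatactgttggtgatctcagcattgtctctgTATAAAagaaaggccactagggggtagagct
MMP7: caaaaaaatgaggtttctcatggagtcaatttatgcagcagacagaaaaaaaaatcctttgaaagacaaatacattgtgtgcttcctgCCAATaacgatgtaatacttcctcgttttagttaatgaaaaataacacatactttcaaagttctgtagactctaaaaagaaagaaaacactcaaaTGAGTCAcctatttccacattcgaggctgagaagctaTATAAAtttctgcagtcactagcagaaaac
MMP14: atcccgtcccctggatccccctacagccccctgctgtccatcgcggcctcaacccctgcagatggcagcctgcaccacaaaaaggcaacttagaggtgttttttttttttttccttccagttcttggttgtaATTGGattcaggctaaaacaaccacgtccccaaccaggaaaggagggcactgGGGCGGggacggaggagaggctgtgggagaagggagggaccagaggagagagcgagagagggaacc
MMP15: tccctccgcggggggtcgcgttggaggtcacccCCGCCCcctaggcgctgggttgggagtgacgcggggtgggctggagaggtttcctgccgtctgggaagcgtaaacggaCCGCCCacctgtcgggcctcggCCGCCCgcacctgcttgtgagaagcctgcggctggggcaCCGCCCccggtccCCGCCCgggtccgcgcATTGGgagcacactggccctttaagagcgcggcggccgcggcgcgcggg
MMP23B: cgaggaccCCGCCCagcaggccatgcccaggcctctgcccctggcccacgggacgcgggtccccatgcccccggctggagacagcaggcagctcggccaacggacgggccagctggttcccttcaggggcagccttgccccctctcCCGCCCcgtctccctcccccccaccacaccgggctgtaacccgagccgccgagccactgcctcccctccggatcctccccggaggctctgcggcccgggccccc

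A CCAAT box stood in 4 of the 5 windows, at bases -218 to -214 of MMP10, -162 to -158 of MMP7, -118 to -114 of MMP14 and -49 to -45 of MMP15, and these letters were not in the MMP23B window. Of all 35116 promoters in the table, 32.0% held a CCAAT box in a window of this length. The windows fell into 2 kinds. MMP10 and MMP7 were AT-rich, with GC contents of 34.4% and 33.6%, and held a TATAAA at bases -31 to -26 and -30 to -25, which 10.7% of all promoters do. MMP7 also held an AP-1 element at -67 to -61, a motif of 4.20% of promoters. The windows of MMP14, MMP15 and MMP23B had GC contents of 56.8%, 74.8% and 76.4%, and held 1, 5 and 2 GC boxes, a motif of 42.6% of promoters. A match of letters is a description, and no binding of NF-Y was measured here.

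MMP2 and MMP7 were the members closest to the limit of detection, and the study's RT-qPCR primers mark the stretches of both mRNAs that it amplified. Only their place is used here, and positions are those of GRCh37. Both MMP2 primers lie in coding sequence, at chr16:55523684-55523704 in exon 7 and chr16:55525842-55525862 in exon 8 of 13, and span 203 bases found in 4 of 8 annotated transcripts. Both MMP7 primers lie in coding exon 4 of 6, at chr11:102395746-102395765 and chr11:102395669-102395688, and span 97 bases found in 2 of 3 annotated transcripts.
MMP2 forward: gaccacagccaactacgatga
MMP2 reverse: gctcctgaatgcccttgatgt
MMP7 forward: caggaaacacgctggctcat
MMP7 reverse: agactgctaccatccgtcca

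MMP9, MMP7 and MMP15 rose in both overexpressing lines and MMP13 fell in both. MMP23B rose in NF-YAl, MMP2 rose in NF-YAs, and MMP1, MMP3 and MMP10 fell in NF-YAs. A gene was called changed when its |log2FC| exceeded 1 with an adjusted p under 0.01 (quasi-likelihood F test of edgeR, Benjamini-Hochberg adjusted over all tested genes). In NF-YAl against Empty, 4 members rose (MMP7, MMP9, MMP15 and MMP23B) and 1 fell (MMP13), where 4.76% of all tested genes rose and 3.50% fell. In NF-YAs against Empty, 4 rose (MMP2, MMP7, MMP9 and MMP15) and 4 fell (MMP1, MMP3, MMP10 and MMP13), where 5.44% of all tested genes rose and 3.90% fell. With the adjusted p alone and no limit on the fold change, MMP14 joined the members that rose in both lines, and MMP1 joined those that fell in NF-YAl. On that rule 10% of all tested genes rose and 9.54% fell in NF-YAl, and 12.1% rose and 10.5% fell in NF-YAs. The comparisons with Empty share its 3 libraries.

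The filter on low counts asked for 0.442 CPM in 3 libraries, and 3 members were near it. MMP2 passed only through its NF-YAs libraries, MMP3 through Empty and 2 libraries of NF-YAl, and MMP7 through NF-YAs and 2 libraries of NF-YAl, so their differences were partly a condition of being tested. The other 7 members exceeded it in all 9 libraries. The median log2FC of the members was 1.21 in NF-YAl and 0.53 in NF-YAs, against 0.01 and -0.00 over all tested genes. Without regard to sign, the median log2FC of the members was 1.62 in NF-YAl and 1.44 in NF-YAs, against 0.30 and 0.33 over all tested genes. Over the 7 members that exceeded the filter in all libraries, the median log2FC was 0.93 and 0.22, and its median size 1.49 and 1.21. Without NF-YAl D, the library that stood apart, MMP14 was called as well in NF-YAl against Empty, and the counts were 5 up and 1 down.

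**Figure D1:**
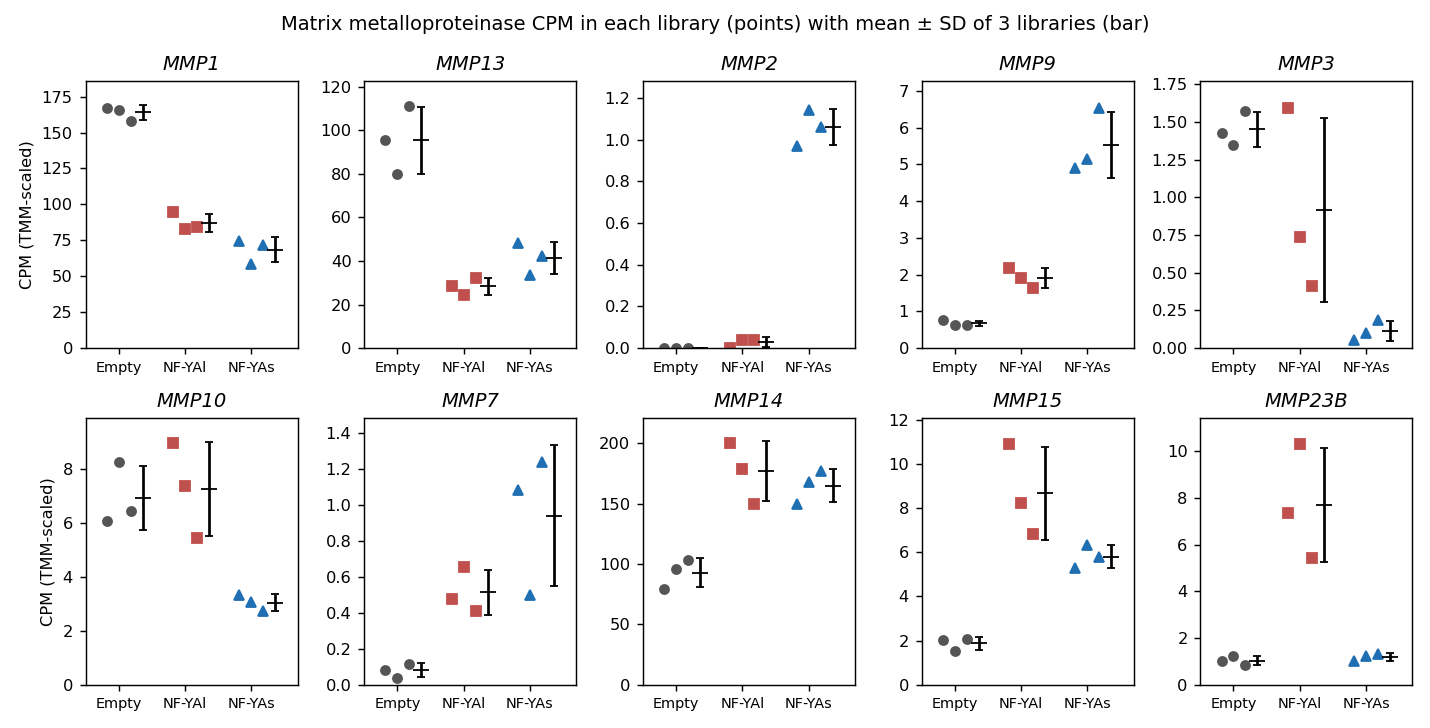
CPM of the 10 MMPs in each library, on linear axes that start at 0 and differ between panels. Points are libraries in the order of their letters, and the bar beside each group is the mean ± SD of 3 libraries. MMP1 and MMP13 are highest in Empty, MMP9 and MMP2 in NF-YAs and MMP23B in NF-YAl, and the NF-YAl libraries of MMP3 run from just above the Empty range to far below it.

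The collagenases MMP1 and MMP13, which cut the triple helix of fibrillar collagens, were the most abundant of the 10 per unit length in Empty, and were lower in both overexpressing lines. MMP1 lies on the minus strand of chromosome 11 at chr11:102660132-102668891. It was at 167, 166 and 158 CPM in Empty A, B and C, at 94.5, 83.1 and 84.0 CPM in NF-YAl A, B and D, and at 74.8, 58.4 and 72.0 CPM in NF-YAs A, B and C. The 3 groups did not overlap, with Empty highest and NF-YAs lowest. The fall in NF-YAs was 2.39-fold (log2FC -1.26, SE 0.108, adjusted p = 6.06e-06). In NF-YAl the level was 1.88-fold lower (log2FC -0.91, SE 0.107, adjusted p = 6.44e-05), which is past the p threshold and short of the limit on the fold change. Between the isoforms MMP1 was not called, at a level 1.27-fold higher in NF-YAl (adjusted p = 0.0344). All its reads were assigned to the transcript of 2055 nt, and the other listed transcript was at 0 in all libraries.

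MMP13, at chr11:102813724-102826461 on the minus strand, was at 95.3, 80.0 and 111 CPM in Empty, at 28.4, 24.3 and 32.3 CPM in NF-YAl and at 48.2, 33.5 and 42.1 CPM in NF-YAs. No library of either overexpressing line reached the lowest of Empty, and the NF-YAl libraries lay below those of NF-YAs. MMP13 fell 3.36-fold in NF-YAl (log2FC -1.75, SE 0.160, adjusted p = 1.07e-05) and 2.31-fold in NF-YAs (log2FC -1.21, SE 0.157, adjusted p = 0.000108). The order of the isoforms was thus the opposite of that for MMP1, but the difference between them for MMP13 (log2FC -0.54, 95% interval -0.89 to -0.20, adjusted p = 0.0287) was not called either.

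The gelatinases, which degrade denatured collagen and the type IV collagen of basement membrane, were low in all lines and highest in NF-YAs. MMP9, at chr20:44637547-44645200 on the plus strand, was at 0.755, 0.636 and 0.630 CPM in Empty (18, 16 and 16 counts), at 2.17, 1.92 and 1.64 CPM in NF-YAl (41, 47 and 40 counts) and at 4.90, 5.13 and 6.54 CPM in NF-YAs (91, 103 and 142 counts). The 3 groups formed separate steps with no overlap. MMP9 rose 2.82-fold in NF-YAl (log2FC 1.49, SE 0.248, adjusted p = 0.000702) and 8.16-fold in NF-YAs (log2FC 3.03, SE 0.238, adjusted p = 3.25e-06). The direct comparison of the isoforms was called as well, with MMP9 2.90-fold lower in NF-YAl than in NF-YAs (log2FC -1.53, SE 0.214, adjusted p = 0.000485).

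MMP2, at chr16:55423612-55540603 on the plus strand, had no count in any Empty library. It had 0, 1 and 1 counts in NF-YAl A, B and D, and 18, 23 and 23 counts in NF-YAs A, B and C, which is 0.970, 1.14 and 1.06 CPM. Thus every NF-YAs library had MMP2 reads, and Empty and NF-YAl were at or under the floor of 3 counts over the group. NF-YAs had at least 26.3-fold higher MMP2 than Empty (64 counts against the floor, adjusted p = 5.42e-05). Against NF-YAl the ratio was 35.9 with an exact 95% counting interval of 9.53 to 303, from 64 and 2 counts (adjusted p = 0.000368). Intervals and floors of this kind cover counting error only. MMP2 was tested only because its NF-YAs libraries passed the low-count filter, so these p-values are not separate support for the rise. The reads of NF-YAs A went to a transcript of 3215 nt, those of NF-YAs B to one of 3543 nt, and those of NF-YAs C to that of 3543 nt (19.01 expected counts) and one of 3137 nt (3.99), so the isoform of MMP2 was not settled at this depth.

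The stromelysins, with broad activity on proteoglycans, laminin and fibronectin, were lower in NF-YAs than in either other line. MMP10, at chr11:102641233-102651359 on the minus strand, was at 6.08, 8.26 and 6.45 CPM in Empty, at 8.96, 7.36 and 5.46 CPM in NF-YAl and at 3.34, 3.09 and 2.72 CPM in NF-YAs. Empty and NF-YAl overlapped, and all NF-YAs libraries lay below both. MMP10 fell 2.28-fold in NF-YAs (log2FC -1.19, SE 0.215, adjusted p = 0.00111). For NF-YAl against Empty the log2FC was 0.06 with a 95% interval of -0.38 to 0.50 (adjusted p = 0.853). MMP10 was 2.38-fold higher in NF-YAl than in NF-YAs (log2FC 1.25, SE 0.216, adjusted p = 0.00178), and this call was lost without NF-YAs B (adjusted p = 0.010) and without NF-YAs C (adjusted p = 0.0130). The CCAAT box of MMP10 is the farthest from the start site of the 4 printed above, and whether its place bears on the level was not tested.

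MMP3, at chr11:102706532-102714340 on the minus strand, was at 1.43, 1.35 and 1.57 CPM in Empty (34, 34 and 40 counts), at 1.59, 0.736 and 0.411 CPM in NF-YAl (30, 18 and 10 counts) and at 0.0539, 0.0995 and 0.184 CPM in NF-YAs (1, 2 and 4 counts). NF-YAl A lay above the whole Empty range, NF-YAl B and NF-YAl D lay below it, and the NF-YAs libraries were the lowest of all. MMP3 fell 12-fold in NF-YAs (log2FC -3.59, 95% interval -4.84 to -2.34, adjusted p = 0.000477). It passed the low-count filter only through Empty and 2 libraries of NF-YAl, so this fall was partly a condition of being tested. For NF-YAl against Empty the log2FC was -0.71 (95% interval -1.60 to 0.19, adjusted p = 0.218), and it was -1.33 without NF-YAl A (adjusted p = 0.0179) and -0.35 without NF-YAl D (adjusted p = 0.497). The isoforms differed by a log2FC of 2.88 (SE 0.611, adjusted p = 0.00576), a call that was lost on leaving out any library other than NF-YAl D (highest adjusted p 0.0290).

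MMP7, the small matrilysin that lacks the hemopexin domain and is known to shed cell surface proteins, rose in both lines from very few reads. At chr11:102391239-102401481 on the minus strand, it had 2, 1 and 3 counts in Empty, 9, 16 and 10 counts in NF-YAl and 20, 10 and 27 counts in NF-YAs, which is 0.0839, 0.0397 and 0.118 CPM, 0.477, 0.654 and 0.411 CPM, and 1.08, 0.498 and 1.24 CPM. No overexpressing library overlapped Empty, and NF-YAs B lay within the NF-YAl range. The ratio of NF-YAl to Empty was 6.42 (exact 95% counting interval 2.67 to 18.7, 35 against 6 counts) and that of NF-YAs to Empty was 11.7 (5.06 to 33.2, 57 against 6 counts). The fitted log2FC was 2.60 for NF-YAl, with an SE of 0.578 (adjusted p = 0.00471), and 3.46 for NF-YAs, with an SE of 0.539 (adjusted p = 0.000399). MMP7 passed the low-count filter only through NF-YAs and 2 libraries of NF-YAl, so these rises were partly a condition of being tested. The NF-YAl call was lost without Empty A, Empty B, Empty C or NF-YAl B (adjusted p = 0.0180, 0.0251, 0.0132 and 0.0213). The isoforms were not told apart, with a log2FC of NF-YAl against NF-YAs of -0.86 and a 95% interval of -1.75 to 0.02 (adjusted p = 0.147).

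The membrane-type enzymes stay anchored in the plasma membrane, and MMP14 is known as a pericellular collagenase and the activator of the MMP2 proenzyme. MMP14, at chr14:23305769-23318250 on the plus strand, was at 79.5, 95.7 and 103 CPM in Empty, at 200, 179 and 150 CPM in NF-YAl and at 150, 168 and 177 CPM in NF-YAs. The overexpressing lines overlapped each other and both lay above Empty. The level was 1.91-fold higher in NF-YAl (log2FC 0.93, SE 0.129, adjusted p = 0.000208) and 1.78-fold higher in NF-YAs (log2FC 0.83, SE 0.129, adjusted p = 0.000378), both past the p threshold and short of the limit on the fold change. In NF-YAl the log2FC passed that limit without Empty C (1.01) and without NF-YAl D (1.04). Between the isoforms the log2FC was 0.10 with a 95% interval of -0.18 to 0.37 (adjusted p = 0.616).

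MMP15, at chr16:58059658-58080805 on the plus strand, was at 2.01, 1.51 and 2.09 CPM in Empty, at 10.9, 8.22 and 6.82 CPM in NF-YAl and at 5.28, 6.32 and 5.76 CPM in NF-YAs. The 3 groups did not overlap, and here NF-YAl was the highest. MMP15 rose 4.61-fold in NF-YAl (log2FC 2.20, SE 0.218, adjusted p = 1.94e-05) and 3.09-fold in NF-YAs (log2FC 1.63, SE 0.220, adjusted p = 0.000142). The difference between the isoforms, 1.49-fold, was not called (log2FC 0.58, 95% interval 0.14 to 1.01, adjusted p = 0.0577). Of the 5 windows printed above, that of MMP15 has its CCAAT box nearest to the start site and the most GC boxes. Whether these motifs bear on its level was not tested.

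MMP23B, an atypical member that is held in the membrane by its N-terminal part, rose in NF-YAl. At chr1:1567542-1570639 on the plus strand, it was at 1.01, 1.23 and 0.866 CPM in Empty, at 7.37, 10.3 and 5.42 CPM in NF-YAl and at 1.02, 1.24 and 1.34 CPM in NF-YAs. All NF-YAl libraries lay above the other 6, which overlapped. MMP23B rose 7.40-fold in NF-YAl (log2FC 2.89, SE 0.272, adjusted p = 1.36e-05), and was 6.36-fold higher in NF-YAl than in NF-YAs (log2FC 2.67, SE 0.273, adjusted p = 5.94e-05). For NF-YAs against Empty the log2FC was 0.22 with a 95% interval of -0.44 to 0.88 (adjusted p = 0.612). The pseudogene MMP23A, at chr1:1631381-1633221, is a near copy between which RSEM can split reads, and the summed level of both was 1.01, 1.71 and 1.02 CPM in Empty, 8.70, 10.3 and 8.01 CPM in NF-YAl and 1.02, 1.64 and 1.94 CPM in NF-YAs, with the same order of groups. CDK11B, which overlaps the end of MMP23B on the opposite strand, was at 69.1, 60.6 and 55.5 CPM on average in Empty, NF-YAl and NF-YAs and was not called, and whether the counting used strand is not given in the sources used here.

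**Figure D2:**
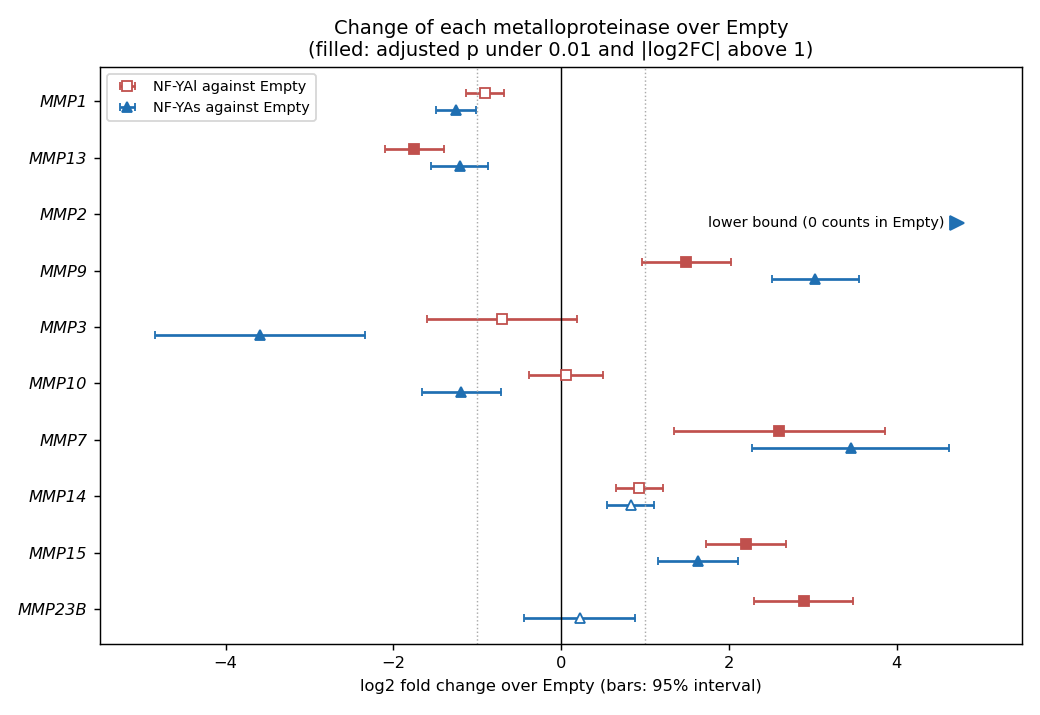
Log2 fold change over Empty of each member in NF-YAl (squares) and NF-YAs (triangles), with 95% intervals as bars; filled symbols passed both the adjusted p of 0.01 and the |log2FC| of 1 that the dotted lines mark. For MMP2 the arrow is the lower bound of 26.3-fold in NF-YAs, and NF-YAl is not drawn because both groups were at or under the floor. MMP10 and MMP23B lie near 0 in one line and beyond 1 in the other, MMP3 lies at -0.71 in NF-YAl with an interval that includes 0 and beyond 1 in NF-YAs, while MMP7, MMP9, MMP13 and MMP15 lie beyond 1 on the same side in both.

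In the direct comparison of the isoforms, 3 members were higher in NF-YAl (MMP3, MMP10 and MMP23B) and 2 were lower (MMP2 and MMP9), where 1.74% of all tested genes were higher and 2.86% lower. Without NF-YAs B, and likewise without NF-YAs C, 1 member, MMP23B, remained among the higher. Of the 5 called members, MMP2 and MMP3 were near the filter on low counts. Over the 7 members that exceeded it in all libraries, the median log2FC without regard to sign was 0.58, against 0.27 over all tested genes. MMP14 and MMP7 overlapped between the isoforms, and MMP1, MMP13 and MMP15 did not overlap and were not called.

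Within a library, TPM shows which enzymes made up the MMP transcripts per unit length. The collagenases took 78.5 ± 2.13% of the summed TPM of the 10 members in Empty (SD, n = 3), 46.1 ± 4.01% in NF-YAl and 48.0 ± 4.75% in NF-YAs. The membrane-type enzymes took 17.4 ± 1.88%, 43.0 ± 2.15% and 45.7 ± 4.66%. On both measures the overexpressing lines overlapped each other and neither overlapped Empty, NF-YAl D included. The stromelysins took 3.28 ± 0.486%, 4.02 ± 0.759% and 1.82 ± 0.225% in the same order, the gelatinases 0.196 ± 0.0231%, 0.713 ± 0.0228% and 2.63 ± 0.277%, and MMP23B 0.612 ± 0.125%, 5.71 ± 1.73% and 1.03 ± 0.144%. These are descriptions, since a share falls when another member rises.

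The order of the levels differed between the lines. In Empty the order by mean TPM was MMP1 (97.1), MMP13 (41.8), MMP14 (29.9), MMP10 (4.81), MMP23B (1.08), MMP3 (0.927), MMP15 (0.517), MMP9 (0.350), MMP7 (0.0933) and MMP2 (0). The neighbours MMP23B and MMP3, and MMP15 and MMP9, overlapped over the libraries. In NF-YAl MMP14 (71.2) and MMP1 (65.1) led, and MMP14 was the higher in NF-YAl A and B but not in D (86.3 against 87.2 TPM). MMP13 (16.2) and MMP23B (9.45) followed, with ranges that overlapped across the libraries. In NF-YAs MMP14 (60.1) led over MMP1 (45.5) with no overlap, MMP13 (20.4) came next, and MMP9 (3.17) stood above MMP10 (2.41). MMP2 (0.410) and MMP3 (0.0767) came last in NF-YAs.

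**Figure D3:**
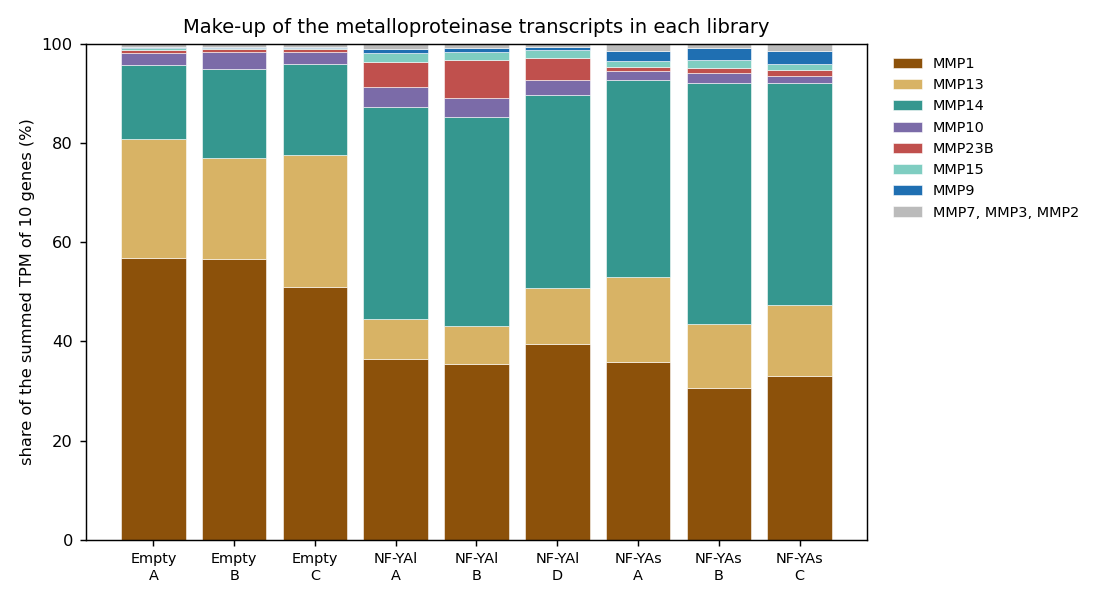
Share of each member in the summed TPM of the 10 members, in percent, for each of the 9 libraries as stacked bars. MMP1 and MMP13 together fill 77.0 to 80.9% of the Empty bars and 43.2 to 53.0% of the others, where MMP14 is the widest or second widest band, and the MMP23B band is widest in NF-YAl.

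MMP7, MMP10, MMP1, MMP3 and MMP13 lie in this order within 435 kb of chromosome 11, on the same strand, in the MMP gene cluster. They did not move together. MMP7, at one end, rose in both lines, while the other 4 were lower than Empty in NF-YAs. In NF-YAl MMP13 fell, MMP1 was past the p threshold and short of the fold limit, and MMP10 and MMP3 were not called. MMP20, MMP27, MMP8 and MMP12 of the same cluster had at most 1, 0, 2 and 2 counts in any library and were not tested. The transcribed pseudogene WTAPP1, which overlaps MMP10, MMP1 and MMP3 on the opposite strand, was at 0.459, 0.563 and 0.402 CPM on average in Empty, NF-YAl and NF-YAs, and was not called. Of the 9 other tested genes in the cluster and within 1 Mb on either side, 1 rose in NF-YAl (PDGFD, log2FC 1.38) and 2 rose in NF-YAs (PDGFD, log2FC 1.53, and BIRC3, adjusted p = 0.00118). Of these 9, 0 fell by edgeR, by DESeq2 or at an unadjusted p under 0.05, and the medians were 0.19 and 0.21. By edgeR 4.76% of all tested genes rose and 3.50% fell in NF-YAl, and 5.44% rose and 3.90% fell in NF-YAs. Their share at the unadjusted p was not taken.

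**Figure D4:**
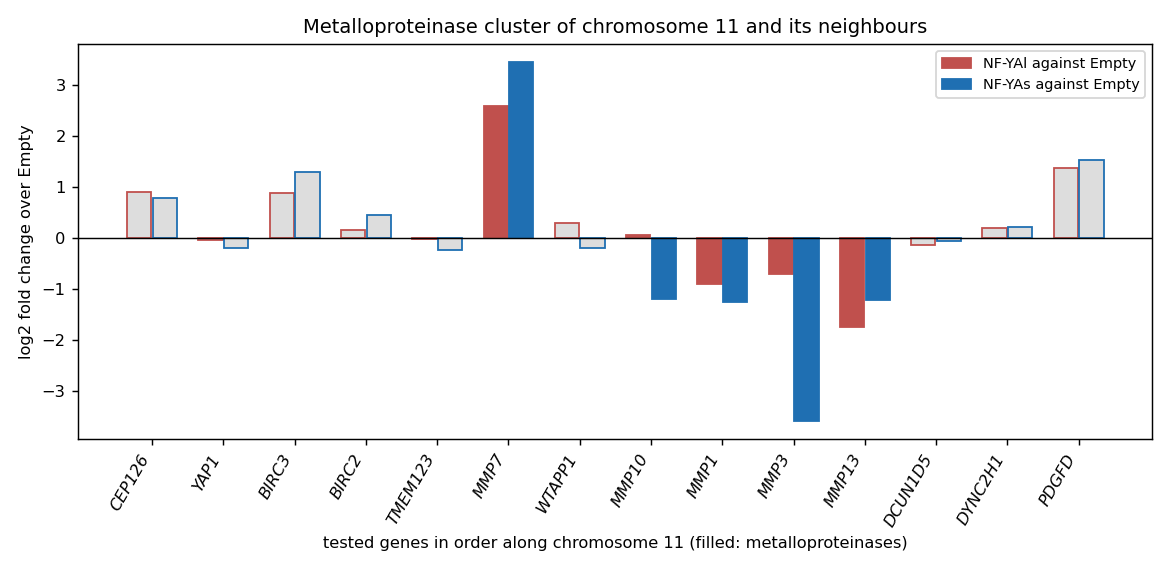
Log2 fold change over Empty of the tested genes of the chromosome 11 cluster and its flanks, in their order along the chromosome and not to scale; left bars are NF-YAl, right bars NF-YAs, and filled bars are MMPs. MMP7 stands at 2.60 and 3.46, and its cluster neighbours MMP10, MMP1, MMP3 and MMP13 range from 0.06 to -3.59.

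Of 14 other MMP genes in the tables, 7 were tested. In NF-YAl 0 of them were called by edgeR and 0 by DESeq2, and in NF-YAs 2 rose and 0 fell by edgeR. Of all tested genes, 4.76% rose and 3.50% fell in NF-YAl, and 5.44% rose and 3.90% fell in NF-YAs. At an unadjusted p under 0.05, 4 rose and 0 fell in NF-YAl, and 4 rose and 1 fell in NF-YAs. The share of all tested genes at that p was not taken, so these counts cannot be judged against it. In NF-YAl MMP16 also passed on the adjusted p alone (log2FC 0.71, adjusted p = 0.000982). MMP17, a glycolipid-anchored member, was at 6.25, 7.55 and 5.20 CPM in Empty, 3.66, 11.7 and 12.9 CPM in NF-YAl and 15.5, 16.9 and 17.3 CPM in NF-YAs, and rose 2.61-fold in NF-YAs (log2FC 1.39, SE 0.333, adjusted p = 0.00649). This call was lost on leaving out any library of Empty or NF-YAs (highest adjusted p 0.0350). The related MMP25 rose in NF-YAs as well (log2FC 1.64, adjusted p = 0.000957). MMP16, another membrane-type enzyme, had the highest TPM of the 14 in each of the 9 libraries, and was at 62.3 ± 6.68, 102 ± 17.2 and 84.2 ± 2.32 CPM (SD, n = 3) in Empty, NF-YAl and NF-YAs. The median log2FC of the 7 was 0.71 in NF-YAl and 0.67 in NF-YAs. The 7 include the pseudogene MMP23A, which shares reads with MMP23B, and without it the medians of the other 6 were 0.69 and 0.88, with 3 rising in NF-YAl at an unadjusted p under 0.05.

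Among 6 inhibitors, 4 were tested and 1 changed. Of all tested genes, 4.76% rose and 3.50% fell in NF-YAl, and 5.44% rose and 3.90% fell in NF-YAs. TIMP3, the inhibitor that is bound to the matrix, was at 25.4, 22.2 and 16.7 CPM in Empty, at 0.159, 0.0818 and 0.0822 CPM in NF-YAl and at 1.40, 0.647 and 1.75 CPM in NF-YAs. The groups were far apart, with NF-YAl near 0. TIMP3 fell in NF-YAl (log2FC -7.62, SE 0.396, adjusted p = 3.17e-07) and in NF-YAs (log2FC -4.07, SE 0.283, adjusted p = 1.56e-06), and was lower in NF-YAl than in NF-YAs (log2FC -3.55, SE 0.512, adjusted p = 0.000595). TIMP1 and TIMP2, the soluble inhibitors, were not called in any comparison. TIMP1 was at 297 ± 26.2, 253 ± 35.8 and 300 ± 26.3 CPM (SD, n = 3) in Empty, NF-YAl and NF-YAs, and TIMP2 at 233 ± 11.4, 338 ± 35.6 and 295 ± 15.0 CPM. In each of the 9 libraries the TPM of TIMP1 exceeded that of every MMP. The median log2FC of the 4 tested inhibitors was -0.02 in NF-YAl and 0.07 in NF-YAs.

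Of 12 genes that activate proenzymes or induce MMPs, 9 were tested. The proprotein convertase PCSK5 rose in both lines, and PLAT and KLK4 fell in NF-YAl, with medians over the 9 of -0.23 in NF-YAl and 0.16 in NF-YAs. Of all tested genes, 4.76% rose and 3.50% fell in NF-YAl, and 5.44% rose and 3.90% fell in NF-YAs. PCSK5 and KLK4 had under 5 CPM in the higher group or overlapping libraries, and their levels are not given. PLAT, the tissue plasminogen activator, was at 1746, 2296 and 1831 CPM in Empty, 567, 957 and 853 CPM in NF-YAl and 938, 952 and 1158 CPM in NF-YAs. It fell 2.47-fold in NF-YAl (log2FC -1.30, SE 0.184, adjusted p = 0.000230), and was 1.93-fold lower in NF-YAs, short of the fold limit (adjusted p = 0.00169).

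All 8 surface molecules that dock or take up MMPs were tested, of which 3 rose and 1 fell in NF-YAl and 1 rose and 1 fell in NF-YAs, with medians of 0.55 and 0.13, where 4.76% and 5.44% of all tested genes rose and 3.50% and 3.90% fell. ITGB3, the beta subunit of the vitronectin receptor that can bind MMP2, was at 3.06, 2.46 and 3.98 CPM in Empty, 48.1, 28.8 and 27.5 CPM in NF-YAl and 67.4, 63.4 and 68.9 CPM in NF-YAs. It rose 10.9-fold in NF-YAl (adjusted p = 1.39e-06) and 21.0-fold in NF-YAs (adjusted p = 3.99e-07). Its partner ITGAV rose in NF-YAl from 40.2 ± 2.83 to 80.5 ± 14.3 CPM (SD, n = 3, adjusted p = 9.45e-05), and fell short of the fold limit without Empty A, Empty C or NF-YAl A (smallest log2FC 0.86). ITGA2, the collagen receptor subunit to which MMP1 binds, fell 2.49-fold in NF-YAl (adjusted p = 7.39e-06) and 2.27-fold in NF-YAs (adjusted p = 1.22e-05). CLDN1, a tight junction protein, rose 4.28-fold in NF-YAl (adjusted p = 0.000410) and was at 3.24 and 3.76 CPM in Empty and NF-YAs.

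All 16 transcription factors of the AP-1, ETS, RUNX and NF-kB families that are known to act on MMP promoters were tested, and 0 rose and 1 fell in NF-YAl, while 1 rose and 2 fell in NF-YAs, with medians of -0.16 and -0.33. These counts are near the shares of all tested genes, 4.76% up and 3.50% down in NF-YAl and 5.44% up and 3.90% down in NF-YAs. DESeq2 likewise called 0 higher in NF-YAl. At an unadjusted p under 0.05, 2 rose and 7 fell in NF-YAl and 3 rose and 7 fell in NF-YAs. The share of all tested genes at that unadjusted p was not taken, so these counts cannot be judged against it. Without NF-YAl D, 2 fell in NF-YAl. ELF3, an epithelial ETS factor, was at 50.4, 31.9 and 54.4 CPM in Empty, 8.33, 6.75 and 15.4 CPM in NF-YAl and 2.10, 1.34 and 2.07 CPM in NF-YAs. It fell 4.47-fold in NF-YAl (adjusted p = 0.000142) and 24.7-fold in NF-YAs (adjusted p = 2.26e-06), and the isoforms differed (log2FC 2.47, adjusted p = 0.000477). RUNX2, the bone factor, rose 2.33-fold in NF-YAs (3.29 to 7.67 CPM, adjusted p = 0.000444). JUND, an AP-1 subunit, fell 2.21-fold in NF-YAs (60.9 to 27.6 CPM, adjusted p = 6.64e-06).

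Of 22 matrix substrates, 20 were tested, of which 6 rose and 1 fell in NF-YAl, where 4.76% of all tested genes rose and 3.50% fell. In NF-YAs 8 rose and 0 fell, against 5.44% and 3.90% of all tested genes. The median log2FC was 0.61 in NF-YAl and 0.86 in NF-YAs, against 0.01 and -0.00 over all tested genes. At an unadjusted p under 0.05, 10 rose and 4 fell in NF-YAl and 12 rose and 3 fell in NF-YAs, and DESeq2 called 0 lower in NF-YAs. The share of all tested genes at that unadjusted p was not taken, so the counts at it are a description. Without NF-YAl D, 4 rose in NF-YAl. Type IV collagen is the gelatinase substrate in basement membrane, and of its listed chains COL4A1 and COL4A2 rose in both lines. COL4A5 rose in NF-YAs only, and COL4A3, COL4A4 and COL4A6 were called in neither line. COL4A1 was at 34.2, 39.6 and 41.5 CPM in Empty, 107, 133 and 124 CPM in NF-YAl and 156, 187 and 157 CPM in NF-YAs, a rise of 3.16-fold (adjusted p = 2.30e-06) and 4.34-fold (adjusted p = 4.55e-07). COL4A2 rose 2.33-fold in NF-YAl (adjusted p = 3.32e-05) and 3.85-fold in NF-YAs (adjusted p = 1.45e-06). COL3A1, a fibrillar collagen cut by MMP1 and MMP13, rose 4.12-fold in NF-YAl (adjusted p = 0.00368), with libraries spread from 75.7 to 261 CPM there and from 25.5 to 70.8 CPM in Empty. That call was lost without Empty A, Empty C or NF-YAl B (highest adjusted p 0.0212). TNC, which encodes the matrix glycoprotein tenascin C, was at 149, 109 and 416 CPM on average in Empty, NF-YAl and NF-YAs, and was 3.80-fold lower in NF-YAl than in NF-YAs (log2FC -1.93, SE 0.141, adjusted p = 1.20e-05).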

How the data were processed

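PC3 spheroids of 3 transduced lines were profiled by stranded total RNA-seq, with 3 libraries per line, grouped by the sample labels. The authors ran RSEM with bowtie2 as its aligner on the GRCh37 transcriptome and deposited expected counts and TPM per gene and per transcript. Expected counts share reads among transcripts and are not normalized, and the deposited TPM are scaled to one total per library and corrected for effective length. The deposited transcript tables also give the percent of its gene's TPM that each transcript takes, which was not used, and the authors' lengths and effective lengths are in bases.

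The test was that of edgeR 4.0.16 (R 4.3.3) on rounded expected counts (filterByExpr, TMM, quasi-likelihood F test on all 9 libraries with one mean per line, Benjamini-Hochberg adjustment over 17108 genes). SEs are |log2FC| over the square root of F. p-values measure the spread between independent experiments of 1 transduced population per line. Alternatives were DESeq2 1.42.0, relative log expression scaling, other filters and thresholds, a fit of only the 2 groups compared, a replicate block, an effective length offset, limma 3.58.1 on log2(TPM + 0.5) and leaving out each library. The members, the gene lists and the thresholds were chosen with earlier results of these data known, and the lists were written from general knowledge. All 10 members are named. Of each other list, up to 4 called genes are named by size of change, from those whose group means reach 5 CPM and whose groups do not overlap, and other called genes are named without that rule.

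Gene positions are from GENCODE on GRCh37, and promoters from RefSeq on GRCh38.p14, with 5 of 10 members matched. The procedure was tested on simulated data. Matplotlib 3.10.9 (Python 3.11.15) drew the figures.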

Additional observations from a re-analysis of the deposited data

Results flagged for a closer look

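For 5 members the change over Empty differed between the NF-YAl and NF-YAs lines by a direct test of the difference, given here as the log2FC of NF-YAl against NF-YAs with edgeR's adjusted p. The log2FC was -4.93 for MMP2 (adjusted p = 0.000368), a fitted value that depends on the prior count since NF-YAl had 2 reads, and -1.53 for MMP9 (adjusted p = 0.000485), with both lower in 3 of 3 NF-YAl libraries. It was 2.88 for MMP3 (adjusted p = 0.00576), 1.25 for MMP10 (adjusted p = 0.00178) and 2.67 for MMP23B (adjusted p = 5.94e-05), with each higher in 3 of 3 NF-YAl libraries. MMP2 passed the low-count filter only through NF-YAs, and MMP3 through Empty and 2 libraries of NF-YAl. The differences of both were thus partly a condition of being tested. The MMP3 call was lost on leaving out any library other than NF-YAl D, and the MMP10 call without NF-YAs B or NF-YAs C. The check for single outlying libraries was not run on groups of 3.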

How the results depend on the processing

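Over the 10 members and 3 comparisons, 473 of 499 values under an alternative kept the direction and the side of the threshold, 19 lost a call, 4 gained one and 3 turned sign near 0. Those that turned were MMP10 in NF-YAl against Empty, at -0.01 without Empty A and -0.11 without NF-YAl A (range over left-out libraries -0.11 to 0.23), and MMP14 in NF-YAl against NF-YAs, at -0.00 without NF-YAl A (range -0.00 to 0.20). With no limit on the fold change, 2 members fell in NF-YAl. Asking for 10 counts in every library left 7 members, of which 2 rose in NF-YAs and 1 was lower in NF-YAl than in NF-YAs. Limma on TPM, which moved the median of all genes to 0.25, 0.15 and 0.11, left 2 members falling in NF-YAs and 1 lower in NF-YAl than in NF-YAs, and for MMP1 in NF-YAl against Empty it gave a log2FC of -0.60 (adjusted p = 0.171). With 10 counts in every library MMP2, MMP3 and MMP7 were no longer tested, and the cause of the other shifts was not tested. Leaving out 1 library moved the members higher in NF-YAl than in NF-YAs between 1 and 3.

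Libraries A and B exist for each line, and no source says that a letter marks a shared day. Deviations of same-lettered libraries correlated at 0.123 and 0.253 between Empty and NF-YAl, and at 0.0771, -0.0128 and 0.0984 between Empty and NF-YAs. Between NF-YAl and NF-YAs they correlated at -0.0652 and 0.13. Those of differently lettered libraries ran from -0.22 to 0.0351, from -0.123 to 0.0418 and from -0.144 to 0.163 in the same order. For lack of such a source the main test did not pair the libraries, and whether a letter marks a shared batch was not tested. With the letters as a replicate block, MMP14 passed the fold limit in NF-YAl (log2FC 1.11), so that 5 members rose, and no other call on a member changed.

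Depth limits MMP2, MMP3 and MMP7, which had at most 4 reads per library in at least 1 line, and the isoform of MMP2. The effect of strand, of reads shared between MMP23B and MMP23A, and of the transduction was not tested beyond the values given.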
